A study of Mus musculus with 9 samples.

Results

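The Xlr genes (X-linked lymphocyte regulated) of the Xlr3, Xlr4 and Xlr5 subfamilies were followed in control and Rbbp4 mutant mouse embryonic stem cells (ESCs). The genes are Xlr3a, Xlr3b, Xlr3c, Xlr4a, Xlr4b, Xlr4c, Xlr5a, Xlr5b and Xlr5c, chosen by their symbols, and all 9 had a row among the 25239 genes counted in each library. Their rise in both mutants over the control was known when they were chosen. Values and calls against the control are therefore a description, without a p-value for any of the 9 genes. The difference between the mutants was not part of that choice and was tested. RNA was sequenced from 3 libraries of each of 3 lines of E14 ESCs, a male line with the strain label 12910la, all grown in serum with leukemia inhibitory factor. The control carried the genotype Rbbp4+/+. The Rbbp4Ins/Ins line (below, Ins/Ins) has an insertion of 3 nucleotides on both Rbbp4 alleles, and the Rbbp4Ins/Del line (below, Ins/Del) has that insertion on 1 allele and a deletion of 18 nucleotides on the other. Each mutant line is a single clone selected after CRISPR-Cas9 editing, so an effect of the genotype and a property of the clone cannot be told apart.

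RBBP4 is a WD40 histone-binding protein and a shared subunit of the Polycomb repressive complex PRC2, the deacetylase complexes NuRD and SIN3, and the histone chaperone CAF-1. The Xlr genes encode small nuclear proteins with a COR1 domain, the domain of SYCP3, a structural protein of the axis of meiotic chromosomes. They belong to a rodent gene family that has multiplied on the sex chromosomes, many of whose members are transcribed in the testis. Xlr itself was first described in lymphocytes. Xlr3b, Xlr4b and Xlr4c are known as imprinted genes in mouse brain, where the paternal copy is the less active.

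In mm10 (GRCm38) the 9 genes lie within 219.5 kb of the X chromosome, from 73074343 to 73293863, in 3 repeats that each hold 1 gene of each subfamily. Along the chromosome the order is Xlr4a, Xlr3a and Xlr5a on the minus strand, then Xlr5b, Xlr3b and Xlr4b on the plus strand, and then Xlr4c, Xlr3c and Xlr5c on the minus strand. The repeats are named a, b and c here after the last letter of their genes, and repeat b is therefore inverted relative to its flanks. The representative GENCODE transcript of each gene had 9 exons. No gene overlapped an exon of the opposite strand, whereas 6.1% of the exonic length of Xlr5c was shared with a long Xlr5a transcript of the same strand.

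The genes were near copies of each other, which limits how well their reads can be told apart. Transcript identity was 97.5 to 99.1% within Xlr3, 98.9 to 99.3% within Xlr5 and 85.9 to 94.6% within Xlr4. Each fragment was read for 50 bases at both of its ends, so that a fragment can be placed by either read, and single windows understate how many can. Windows of 50 bases that occurred in no other annotated gene made up 6.7% of the Xlr3b transcript, 9.8% of Xlr5b, 13.1% of Xlr5a and 15.1% of Xlr5c. For Xlr4b, Xlr3c, Xlr3a and Xlr4a this share was 26.9, 27.9, 28.3 and 30.5%, and it was highest for Xlr4c at 47.8%. The other windows recurred in genes of the same subfamily, in Xlr3d-ps, Xlr3e-ps, Xlr4d-ps, Xlr4e-ps, Xlr5d-ps and Xlr5e-ps, and in part between Xlr3 and Xlr4 or in Gm14694 and Gm14695. How reads that fit several genes were counted is not given in the sources used here, so the values of single genes are uncertain, and the sum over each subfamily is given beside them. A sum is less exposed to reads split among its genes, but still lacks reads that were discarded.

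**Figure D1:**
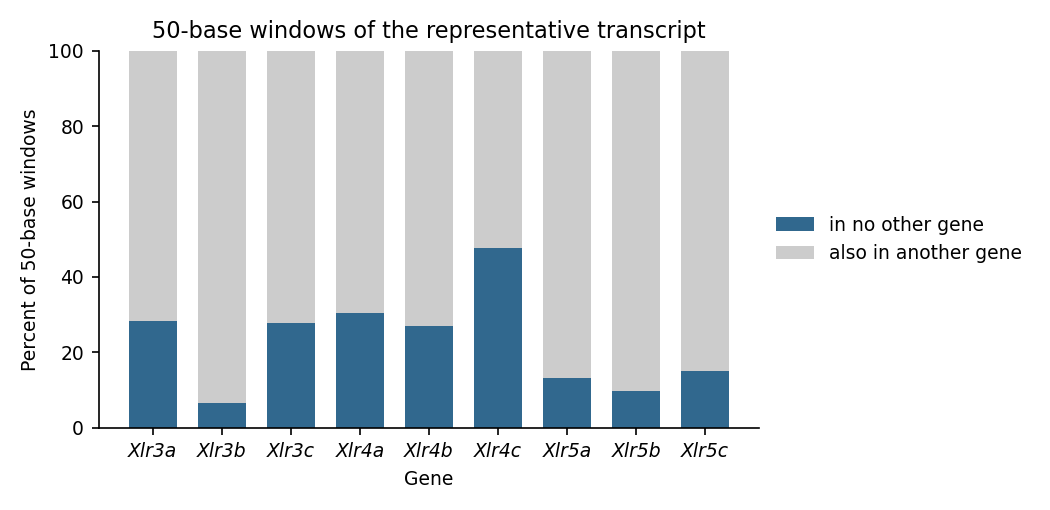
Share of 50-base windows (y axis, percent) of the representative transcript of each gene (x axis) found in no other annotated gene (dark) or also in another gene (grey). Windows stand for single reads, and fragments were read at both ends. Xlr3b had the smallest share of its own at 6.7% and Xlr4c the largest at 47.8%.

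To show how Xlr3 and Xlr4 differ at their starts, the 250 bases before the start site in the RefSeq promoter table are given for 3 genes (RefSeq sequence, GRCm38.p6), 5′ to 3′ in the direction of transcription. Capitals mark the letters CCAATCAG, a CCAAT box, and GCATGCGCA, part of a site of the kind bound by NRF1. Both were searched on both strands after the sequences had been seen.
Xlr3a, chrX:73097096-73097345, minus strand: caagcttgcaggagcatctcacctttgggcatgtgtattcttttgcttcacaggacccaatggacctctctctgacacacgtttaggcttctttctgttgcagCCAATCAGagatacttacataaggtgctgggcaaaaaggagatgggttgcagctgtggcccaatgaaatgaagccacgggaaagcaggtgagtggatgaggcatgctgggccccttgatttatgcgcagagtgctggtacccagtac
Xlr3b, chrX:73191929-73192178, plus strand: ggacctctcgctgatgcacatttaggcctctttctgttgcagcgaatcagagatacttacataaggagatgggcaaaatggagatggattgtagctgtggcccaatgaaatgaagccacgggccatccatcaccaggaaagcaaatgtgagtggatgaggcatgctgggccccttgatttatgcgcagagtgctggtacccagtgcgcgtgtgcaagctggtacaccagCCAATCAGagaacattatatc
Xlr4a, chrX:73082508-73082757, minus strand: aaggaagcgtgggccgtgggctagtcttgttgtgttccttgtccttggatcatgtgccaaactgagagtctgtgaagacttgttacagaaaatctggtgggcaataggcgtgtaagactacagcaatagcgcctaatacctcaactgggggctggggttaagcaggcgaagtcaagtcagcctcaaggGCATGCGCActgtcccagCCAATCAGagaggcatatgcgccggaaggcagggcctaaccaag

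All 3 Xlr3 and all 3 Xlr4 genes held CCAATCAG once in this window, against 4.07% of 27025 mouse promoters of the same length. The box ended 139 bases before the start of Xlr3a and 220 before that of Xlr3c, in matching flanking sequence. In Xlr3b that stretch reads cgaatcag. The Xlr3b match is a different site that ended 13 bases before the start and reads ccaatcgg in Xlr3c. In the Xlr4 genes the box ended 6 to 36 bases before the starts. GCATGCGCA stood upstream of the CCAAT box in the 3 Xlr4 genes and was held by 1.34% of all promoters. CCAATCAG and GCATGCGCA were chosen with these sequences seen, and genes of a subfamily are copies of each other. Their shares over all promoters therefore carry no test. The E-box CACGTG (6.05% of all promoters) and TTCCCGC, the site of E2F6-type factors (3.84%), were found in none of these 6 windows on either strand. Upstream sequence was 98.2 to 99.1% identical among the Xlr4 genes and 98.3% between Xlr3b and Xlr3c, but 85.4% between Xlr3a and Xlr3b over the aligned 206 bases. RefSeq places the outer end of some genes further upstream than this start, so that the last 29 bases of the Xlr3b window, 20 of Xlr4a, 12 of Xlr4b and 186 of Xlr3c lie inside the gene. The CCAAT box of Xlr3b falls within those 29 bases. The windows of all 3 Xlr5 genes lie inside their genes with all 250 bases, and are not described for that reason. A match in letters is a description of the sequence and not a measurement of binding.

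Libraries held 15838064 to 21366868 counts on genes. Rbbp4 itself had mean normalized counts of 10005 ± 99.1 in the control, 5604 ± 153 in Ins/Ins and 10359 ± 238 in Ins/Del (SD, n = 3). A normalized count here is the count scaled by TMM to a library of average size. The edits are too short for gene counts to check the genotype labels. All 8 markers of ESCs that were examined (Pou5f1, Nanog, Sox2, Zfp42, Esrrb, Klf4, Tdgf1 and Utf1) were detected in every group. Of these, 5 were called higher and 2 lower in Ins/Ins, and 4 higher and 1 lower in Ins/Del, among them Zfp42 (log2 0.90 and 1.06) and Utf1 (-0.48 and -0.72). Over all tested genes 29.0% were called higher and 29.4% lower in Ins/Ins, and 30.6% and 31.9% in Ins/Del. The summed levels of the 8 markers were 75446 to 79114 normalized counts in the control, 89318 to 89866 in Ins/Ins and 91506 to 93779 in Ins/Del. The labels do not say whether the 3 libraries of a line came from separate cultures, so their spread may be technical.

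In the control the 9 genes were nearly silent. Together they took 12, 18 and 17 counts in the 3 control libraries, which is 0.562 to 1.05 CPM, the usual scaling of a count to the total of its library. The family took 363, 275 and 327 counts in the Ins/Ins libraries, or 16.9 to 18.8 CPM, and 792, 986 and 803 counts in the Ins/Del libraries, or 44.1 to 50.7 CPM. No library of any line overlapped with a library of another line. The share of all genes without such overlap was not determined, which also holds for the single genes below. As normalized counts, the summed level was 15.8 ± 4.84 in the control, 322 ± 20.4 in Ins/Ins and 876 ± 60.9 in Ins/Del (SD, n = 3). Even in Ins/Del the family therefore remained a small part of the RNA of these cells. In bulk RNA a change in the number of cells that transcribe these genes and a change in RNA per cell cannot be told apart.

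**Figure D2:**
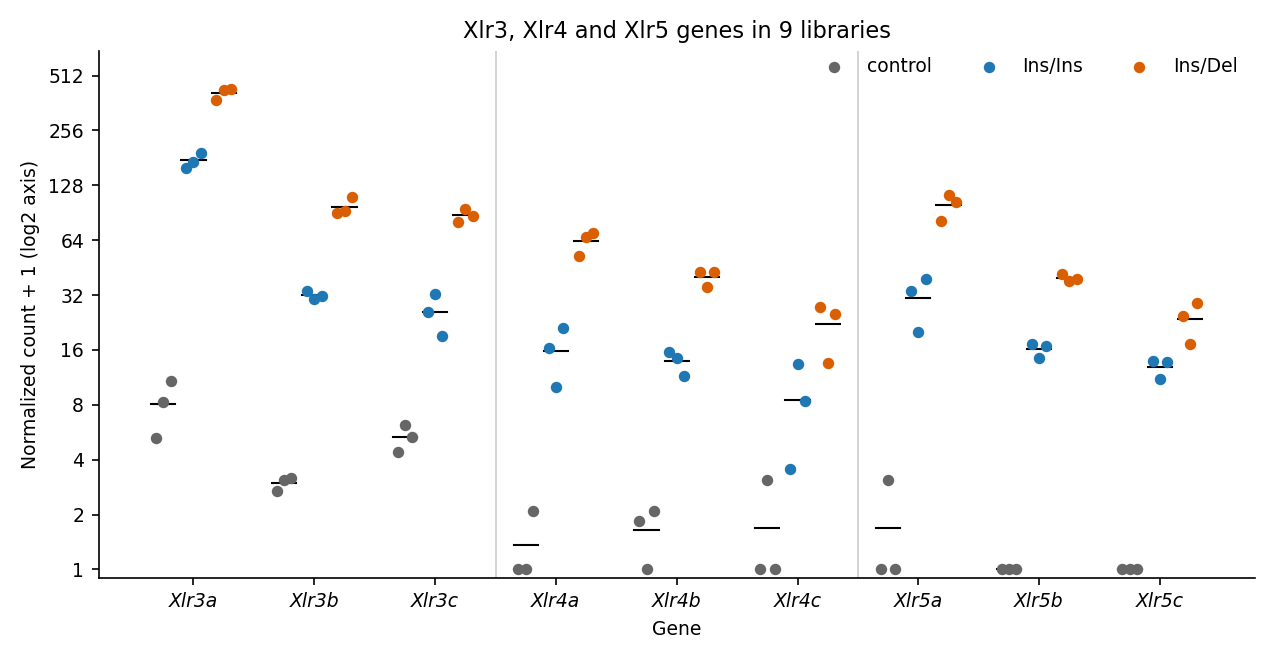
Normalized count + 1 (y axis, log2 scale) of each gene (x axis) in every library, 3 per line. Points are libraries, black bars are group means, and a point at 1 is a count of 0. The Ins/Del libraries lie above the Ins/Ins libraries, and these above the control, for each of the 9 genes. The nearby genes Pnma5, Dusp9, Slc6a8 and Bcap31, not drawn, had the same order. The share of all genes with this order was not determined.

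Each of the 9 genes passed the filter on low counts, but only through the mutant libraries. None was above the filter's limit of 0.575 CPM in any control library, 6 were above it in all Ins/Ins libraries (not Xlr4a, Xlr4c and Xlr5c) and all 9 in all Ins/Del libraries. All 9 were called higher in Ins/Ins than in the control by edgeR at an adjusted p of at most 0.01, where 29.0% of 14125 tested genes were called higher and 29.4% lower, and all 9 in Ins/Del, where 30.6% were called higher and 31.9% lower. These calls repeat the contrast the genes were chosen on. Both contrasts share the control libraries. Folds against the control are given below as ratios of group counts scaled for library size, with exact 95% intervals that cover counting error only.

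Xlr3 gave the most counts in every line. Xlr3a gave 5, 7 and 9 counts in the control libraries, 186, 152 and 182 in Ins/Ins, and 368, 473 and 372 in Ins/Del. It was the only member with more than 5 counts in any control library. Its mean level stepped from 7.12 ± 2.74 normalized counts in the control to 174 ± 16.8 in Ins/Ins and 411 ± 30.3 in Ins/Del (SD, n = 3), with no overlap between lines. The ratio to the control was 25.1 (16.3 to 41.0) in Ins/Ins and 59.7 (38.9 to 96.7) in Ins/Del.

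Xlr3b, which is imprinted in brain, gave 2 counts in each control library, 38, 26 and 29 in Ins/Ins, and 87, 101 and 94 in Ins/Del. Xlr3c gave 4, 5 and 4, then 29, 28 and 17, and then 78, 104 and 74 counts. The lines did not overlap for either gene. In normalized counts Xlr3b reached 30.8 ± 1.59 in Ins/Ins and 96.3 ± 10.9 in Ins/Del (SD, n = 3), or 15.7 times (6.96 to 44.0) and 48.5 times (22.03 to 133) the control. Xlr3c reached 24.8 ± 6.81 and 86.4 ± 7.08, with the smallest ratios to the control among all members, 5.78 (3.18 to 11.4) and 20.3 (11.7 to 38.7). The 3 genes summed to 13.4 ± 3.58 normalized counts in the control, 230.0 ± 12.5 in Ins/Ins and 594 ± 42.9 in Ins/Del, which is 17.4 times (12.7 to 24.6) and 45.2 times (33.1 to 63.5) the control.

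Xlr4 gave the fewest counts in both mutants. Xlr4a had 0, 0 and 1 counts in the control libraries, 18, 8 and 19 in Ins/Ins, and 50, 73 and 60 in Ins/Del. Xlr4b, imprinted in brain, had 1, 0 and 1, then 17, 12 and 10, and then 41, 38 and 36. For both genes every Ins/Del library was above every Ins/Ins library. Xlr4c, also imprinted in brain, had 0, 2 and 0 counts in the control, 3, 11 and 7 in Ins/Ins, and 26, 14 and 21 in Ins/Del. Its highest Ins/Ins library, at 12.4 normalized counts, lay just under its lowest Ins/Del library, at 12.6. The means of Xlr4a, Xlr4b and Xlr4c were 14.8 ± 5.55, 12.9 ± 2.06 and 7.46 ± 4.92 normalized counts in Ins/Ins and 62.1 ± 9.71, 39.3 ± 4.33 and 21.2 ± 7.48 in Ins/Del (SD, n = 3).

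Ratios of the Xlr4 genes to the control are imprecise, because the 3 genes had 5 control counts in all. The Xlr4 sum was 1.71 ± 0.737 normalized counts in the control, 35.2 ± 2.78 in Ins/Ins and 123 ± 11.6 in Ins/Del, with ratios of 21.3 (8.85 to 67.0) and 74.2 (31.5 to 229.8). Xlr4a, with 1 control count, had ratios of 45.7 (7.79 to 1845) and 189 (33.5 to 7507). Single control libraries set the values of Xlr4a and Xlr4c: without control library 3 the fitted log2 fold change of Xlr4a moved from 5.06 to 6.93 in Ins/Ins and from 7.10 to 8.97 in Ins/Del. That of Xlr4c moved from 3.20 to 5.85 and from 4.74 to 7.40 without control library 2, and to 2.59 and 4.13 without control library 1.

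Xlr5 was the subfamily with the fewest reads in the control. Xlr5a gave 0, 2 and 0 counts in the control, 38, 17 and 36 in Ins/Ins, and 79, 124 and 89 in Ins/Del. Xlr5b and Xlr5c had no count in any control library. Xlr5b gave 19, 12 and 15 counts in Ins/Ins and 40, 41 and 33 in Ins/Del, and Xlr5c gave 15, 9 and 12 and then 23, 18 and 24. All 3 genes were thus detected in every mutant library and in 1 control library at most. In normalized counts Xlr5a reached 29.9 ± 9.70 in Ins/Ins and 98.5 ± 16.03 in Ins/Del, Xlr5b 15.2 ± 1.46 and 38.7 ± 1.997, and Xlr5c 11.9 ± 1.504 and 22.5 ± 5.83 (SD, n = 3). Against a floor of 3 counts over the 3 control libraries, Xlr5b was at least 15.6-fold higher in Ins/Ins and at least 39.3-fold higher in Ins/Del. For Xlr5c the bounds were at least 12.2-fold in Ins/Ins and at least 22.4-fold in Ins/Del.

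The Xlr5 sum was 0.698 ± 1.21 normalized counts in the control, 57.0 ± 12.5 in Ins/Ins and 159.7 ± 12.8 in Ins/Del (SD, n = 3). Its ratios to the control, 87.8 (23.95 to 731) and 243 (67.0 to 2015), rest on the 2 Xlr5a counts of control library 2. Without that library the fitted log2 fold change of the sum moved from 6.21 to 8.86 in Ins/Ins and from 7.68 to 10.33 in Ins/Del, and without control library 1 to 5.60 and 7.07. That of Xlr5a alone moved from 5.28 to 7.94 and from 6.98 to 9.64 without control library 2, and to 4.67 and 6.37 without control library 1. The order of the 3 subfamilies by their ratio to the control is not established at this depth. The intervals overlap for Xlr4 and both of the others. Those of Xlr3 and Xlr5 overlap in Ins/Ins (12.7 to 24.6 and 23.95 to 731) but not in Ins/Del (33.1 to 63.5 and 67.0 to 2015).

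**Figure D3:**
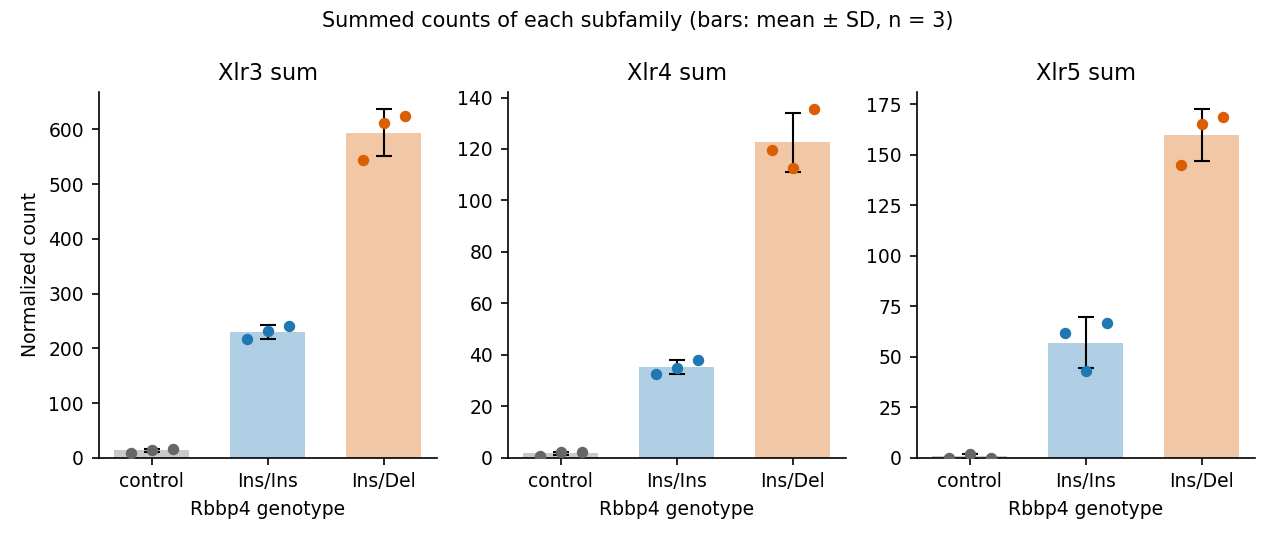
Summed normalized counts of Xlr3, Xlr4 and Xlr5 (y axes, linear and different for each subfamily) by Rbbp4 genotype, with points for libraries and bars for the mean ± SD of 3 libraries. The sums rise from the control to Ins/Ins to Ins/Del, to 594, 123 and 159.7 in Ins/Del.

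The mutant lines were then compared with each other, in the contrast that did not choose the genes, although it shares its libraries with those that did. In edgeR's quasi-likelihood test over all 14125 tested genes, 8 of the 9 genes were higher in Ins/Del than in Ins/Ins at an adjusted p of at most 0.01, where 6.17% of tested genes were called higher and 4.64% lower. No member was lower. The median log2 difference of the 9 genes was 1.58, against -0.0035 for all tested genes. Xlr4a, Xlr4c and Xlr5c were above the filter's limit in all libraries of Ins/Del only, so they could be tested only by being high there. The other 6 genes, above it in all libraries of both mutants, were all called, and with every gene of at least 1 read tested in place of the filter 8 of the 9 were again called. These genes share sequence and reads and are not independent observations.

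All 3 subfamilies differed between the mutants as sums. The Xlr3 sum was 2.59-fold higher in Ins/Del (95% interval of the fit 2.32 to 2.88, log2 1.37 with SE 0.079, adjusted p = 2.6e-16 by edgeR). For the Xlr4 sum the fold was 3.48 (2.76 to 4.37, log2 1.80 with SE 0.17, adjusted p = 2.0e-10 by edgeR), and for the Xlr5 sum 2.77 (2.25 to 3.41, log2 1.47 with SE 0.15, adjusted p = 2.3e-09 by edgeR). Every Ins/Del library was above every Ins/Ins library in each sum, an order whose share over all genes was not determined. The intervals of Xlr3, Xlr4 and Xlr5 overlap, and differences among the subfamilies were not tested.

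Among single genes the log2 difference was largest for Xlr4a, at 2.04 (SE 0.26, adjusted p = 1.9e-07 by edgeR), and smallest for Xlr5c. Xlr4a, Xlr4c and Xlr5c passed the filter only through Ins/Del, where they are high, and their p-values carry that selection. Xlr3c and Xlr5a followed Xlr4a with 1.81 (SE 0.20) and 1.70 (SE 0.21). Xlr3b and Xlr4b were higher by 1.63 (SE 0.18) and 1.58 (SE 0.28) on the log2 scale, Xlr5b by 1.33 (SE 0.27) and Xlr3a, the best measured gene, by 1.24 (SE 0.093). The adjusted p-values of these 6 genes by edgeR lay between 5.9e-13 for Xlr3a and 0.00043 for Xlr5b. Xlr4c, at 1.55 (SE 0.43), passed the limit narrowly with an adjusted p of 0.0095 by edgeR. Xlr5c did not pass it, at 0.88 (SE 0.34) with an adjusted p of 0.064, although its lowest Ins/Del library, at 16.2 normalized counts, was above its highest Ins/Ins library, at 12.8. Its count ratio between the mutants was 1.84, with a counting interval of 1.20 to 2.84.

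The call of Xlr4c depended on single libraries. Without Ins/Ins library 1 its log2 difference was 1.07 (adjusted p = 0.12 by edgeR), without Ins/Ins library 3 it was 1.58 (0.027), without Ins/Del library 1 it was 1.33 (0.078) and without Ins/Del library 3 it was 1.44 (0.042). The other 7 called genes stayed called with each library left out in turn. DESeq2 called 5 of the 9 genes and gave no adjusted p for Xlr4b, Xlr4c, Xlr5b and Xlr5c.

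**Figure D4:**
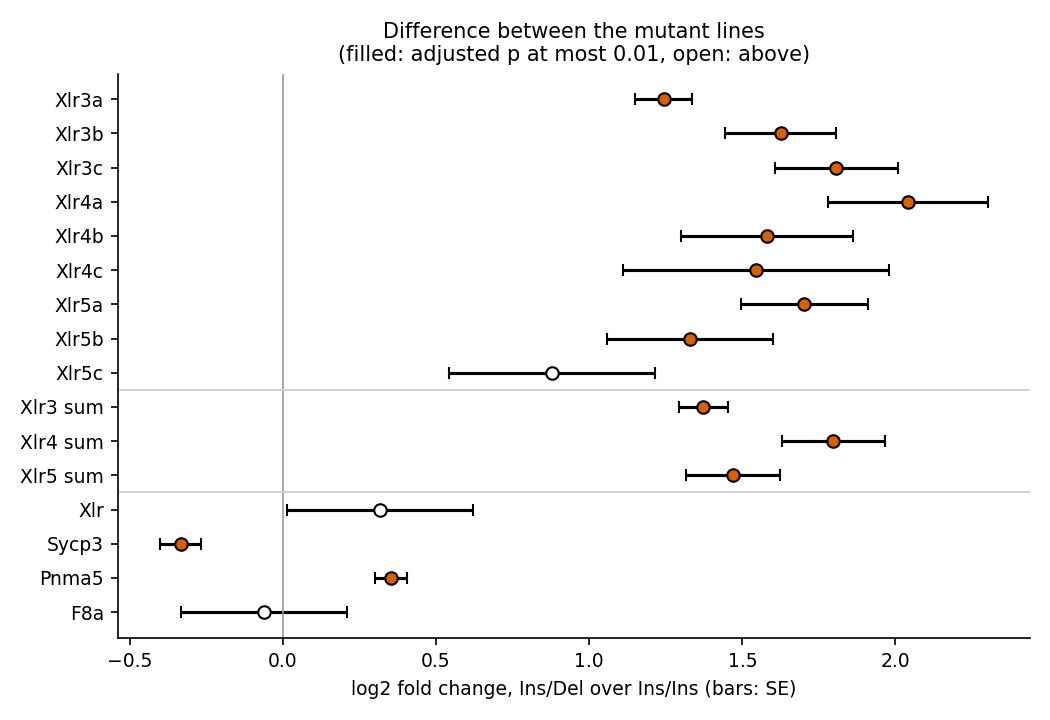
log2 fold change of Ins/Del over Ins/Ins (x axis) for the 9 genes, the 3 subfamily sums, and Xlr, Sycp3, Pnma5 and F8a (y axis), from the edgeR fit of 9 libraries. Bars are SE and filled points have an adjusted p of at most 0.01. The 9 genes lie between 0.88 and 2.04, and Xlr5c is the open point among them.

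Levels of different genes can be compared only per length of transcript. In Ins/Del Xlr3a stood apart at 249.9 ± 18.4 normalized counts per kb (SD, n = 3), followed by Xlr3b at 61.6 ± 6.95, Xlr5a at 59.7 ± 9.72, Xlr3c at 54.5 ± 4.47 and Xlr4a at 53.5 ± 8.36. Neighbours in this order among these last 4 genes differed by less than the sum of their SDs. Below them came Xlr4b at 30.1 ± 3.32, Xlr5b at 23.4 ± 1.21, Xlr4c at 14.1 ± 4.99 and Xlr5c at 13.6 ± 3.52 per kb, and the final pair again differed by less than the sum of its SDs. In Ins/Ins Xlr3a was again first, at 106 ± 10.2 per kb, and the other 8 genes lay between 4.97 and 19.7. The shares of windows found in no other gene differ between the genes, from 6.7 to 47.8%, and their part in this order was not tested.

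Summed over the libraries of each mutant line, the gene of repeat a held the largest part of the counts of its subfamily. Xlr3a made up 73.5, 73.8 and 79.8% of the Xlr3 counts in the Ins/Ins libraries and 69.0, 69.8 and 68.9% in the Ins/Del libraries. All Ins/Ins shares were above all Ins/Del shares, a mean difference of -6.48 percentage points for Ins/Del, with a two-sided p of 0.10 in an exact permutation test. That is the smallest p that 3 against 3 libraries allow, and it was 0.40 after Benjamini-Hochberg adjustment over the 4 shares compared. For Xlr4a the share of its subfamily was 42.0 ± 14.3% in Ins/Ins and 50.8 ± 7.84% in Ins/Del (SD, n = 3, exact permutation p = 0.50). In Ins/Ins library 2 Xlr4a had the smallest share of the 3 genes, 25.8%, with 8 counts against 12 and 11. For Xlr5a the share was 51.6 ± 6.29% and 61.5 ± 6.08% (SD, n = 3, exact permutation p = 0.20). Repeat a as a whole held 67.8 ± 4.18% of the family's counts in Ins/Ins and 65.2 ± 2.61% in Ins/Del (SD, n = 3, exact permutation p = 0.50). With 3 libraries per line these tests could not have reached a p under 0.05, so they do not show that the compositions are alike. From the counts summed over each line, Xlr3a held 75.7% of the Xlr3 counts in Ins/Ins (95% Wilson interval 72.3 to 78.8%) and 69.3% in Ins/Del (67.1 to 71.4%), intervals that do not overlap and cover counting error only.

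By repeat, the a genes summed to 8.18, 219 and 572 normalized counts in control, Ins/Ins and Ins/Del, the b genes to 2.64, 58.9 and 174, and the c genes to 5.03, 44.1 and 130.1. Ins/Del exceeded Ins/Ins 2.62 times (2.39 to 2.87) in repeat a, 2.92 times (2.46 to 3.48) in repeat b and 2.97 times (2.43 to 3.65) in repeat c, with counting intervals that overlap. For the inverted repeat b the ratio lay between those of the other repeats.

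**Figure D5:**
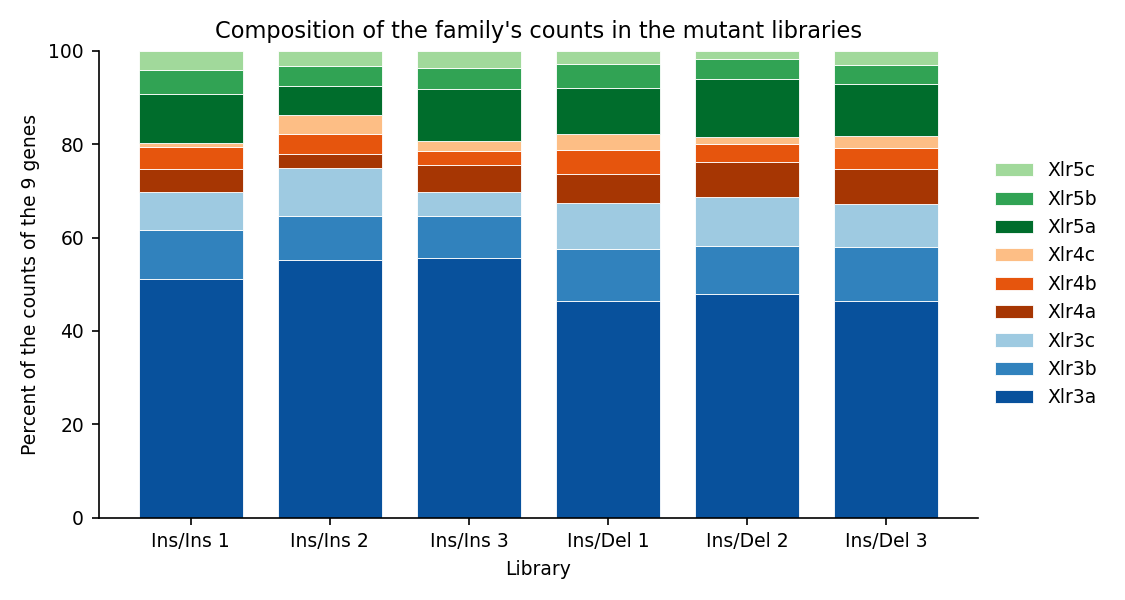
Share of each gene (stacked, y axis in percent) in the counts of the 9 genes, for the 6 mutant libraries (x axis). The 3 Xlr3 genes (blue) hold 67.2 to 74.9% in every library.

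Genes between and around the repeats moved in both directions. Inside the repeats lie 4 other counted genes. Gm14685, DXBay18 and Spin2d had at most 1 count in any library. F8a, an intronless gene, lies between repeats b and c and had 34.8 ± 8.25 normalized counts in the control, 25.6 ± 6.05 in Ins/Ins and 24.1 ± 0.565 in Ins/Del (SD, n = 3). It was called in no contrast, with log2 differences from the control of -0.49 (SE 0.25) and -0.55 (SE 0.25) and adjusted p-values of 0.08 and 0.05 by edgeR. Of these 4 genes and the 10 nearest counted genes on each side, 13 were tested, of which 4 were called higher and 4 lower in Ins/Ins and 5 higher and 4 lower in Ins/Del, near the shares over all tested genes (29.0% higher and 29.4% lower in Ins/Ins, 30.6% and 31.9% in Ins/Del). Between the mutants 4 of the 13 were higher in Ins/Del and 0 lower, against 6.17% and 4.64% of all tested genes. These were Pnma5, Dusp9, Slc6a8 and Bcap31, with log2 differences of 0.35, 0.20, 0.28 and 0.18, and their libraries were ordered as those of the Xlr genes, without overlap between the lines. Past 2-fold in both mutants were Pnma5, a paraneoplastic antigen family gene 34.6 kb before the first Xlr gene, and 2 genes that fell. Pnma5 rose from 349 ± 40.8 to 933 ± 28.1 and 1191 ± 24.1 normalized counts (SD, n = 3). Bgn, which encodes the matrix proteoglycan biglycan, fell from 87.3 ± 15.7 to 3.94 ± 1.54 and 4.19 ± 1.54, and Gabra3, a GABA receptor subunit gene, from 92.1 ± 10.4 to 8.53 ± 3.37 and 5.14 ± 0.637. On the X chromosome as a whole 527 of 1090 counted genes were tested, and 106 were higher and 238 lower in Ins/Ins, with 114 and 243 in Ins/Del. That is 20.1% higher and 45.2% lower in Ins/Ins and 21.6% and 46.1% in Ins/Del, against the 29.0 to 31.9% of all tested genes in each direction.

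Other genes with a SYCP3-like domain moved in both directions. Xlr gave 2, 2 and 6 counts in the control, 22, 17 and 14 in Ins/Ins, and 22, 24 and 19 in Ins/Del. It was called higher in both mutants, with log2 fold changes of 2.38 (SE 0.45) and 2.699 (SE 0.43). With at most 6 counts in a control library, Xlr passed the filter only through the mutants. The list was also chosen with earlier results known, so these values are a description. Between the mutants the difference of Xlr was 0.32 (SE 0.30) with an adjusted p of 0.52, and its count ratio of 1.25 had an interval of 0.855 to 1.83. Gm773 had 0 counts in the control libraries, 11, 4 and 3 in Ins/Ins and 12, 17 and 9 in Ins/Del, too few to be tested. Set against the floor of 3 counts, Gm773 was at least 6.09-fold higher in Ins/Ins and at least 13.1-fold higher in Ins/Del. For 3830403N18Rik the counts were 0 in the control, at most 2 in an Ins/Ins and at most 5 in an Ins/Del library. Slx, Slxl1 and Sly had at most 2 counts in any library, and no difference was detectable.

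Sycp3, the autosomal gene on chromosome 10 that gives the domain its name, went the other way. It fell from 1048 ± 18.7 normalized counts in the control to 507 ± 21.8 in Ins/Ins and 403 ± 41.8 in Ins/Del (SD, n = 3). The log2 fold changes were -1.04 (SE 0.06) and -1.38 (SE 0.06), and the difference between the mutants of -0.33 (SE 0.07) was also called, with an adjusted p of 0.0004 by edgeR.

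X-linked genes of germ cells outside the family were counted from a list of 42, of which 20 were tested. In Ins/Ins 16 were called higher and 1 lower, against 29.0% and 29.4% of all tested genes. In Ins/Del 17 were higher and 2 lower, against 30.6% and 31.9%. The median log2 fold changes were 2.19 and 2.45, against 0.0038 and -0.011 for all tested genes. Rhox2a, Pramel3, Magea4, Tex13b and Mageb4 had at most 5 counts in any control library, and Tktl1 had at most 7. They passed the filter only through the mutants. Such genes could be tested only by being high there, and the list was chosen with earlier results known. Nxf2, Rhox1 and Fthl17f also had a control library of 6 or 7 counts, under the filter's limit of 0.575 CPM. The counts and medians above include all of these genes. Past 2-fold in both mutants were 16 genes. They were the Rhox homeobox genes Rhox1, Rhox2a, Rhox5, Rhox6, Rhox9 and Rhox13, the RNA export genes Nxf2 and Nxf3, the deubiquitinase gene Usp26, the meiotic gene Tex11, Tex13b, the TFIID subunit gene Taf7l, Tktl1, Pramel3, Magea4 and Mageb4. Between the mutants 5 of the 20 were called higher and 1 lower, against 6.17% and 4.64% of all tested genes, with a median log2 difference of 0.35. Those 5 were Usp26, Tex11, Nxf3, Rhox5 and Rhox13, with log2 differences of 0.29, 0.41, 0.65, 0.68 and 0.42. Rhox9 was the gene called lower. Pramel3 had a difference of 1.34 (SE 0.41) with an adjusted p of 0.018 by edgeR, which lies within the range of the Xlr genes but was not called.

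Genes with the most similar course over the 9 libraries were sought among 12707 tested genes with a mean above 20 normalized counts, by the root mean square difference of log2(normalized count + 1) from the control mean. The measure describes likeness and carries no test. Closest to the Xlr3 sum were Pramel7, a PRAME family gene of the early embryo, at 0.36, Slc11a1, a metal ion transporter gene of phagocytes, at 0.43, and Pramef17 at 0.44. The same 3 genes were closest to the Xlr4 sum, at 0.53, 0.54 and 0.59. Pramel7 had 18.1, 455 and 697 normalized counts in control, Ins/Ins and Ins/Del. The nearest to the Xlr5 sum were Gm13128 at 0.85 and the aldo-keto reductase gene Akr1cl and the PRAME family gene Pramel6, both at 0.96. The Xlr3 and Xlr4 sums were closer to each other, at 0.19, than to any of these genes, whereas the Xlr5 sum lay 1.17 from Xlr3 and 1.20 from Xlr4. The value of 0.19 depends on the 1 added to each count, since the Xlr4 sum had only 1.71 normalized counts in the control. As plain ratios to the control, Xlr3 stood at 17.4 in Ins/Ins and 45.2 in Ins/Del, and Xlr4 at 21.3 and 74.2. With at most 2 control counts the Xlr5 sum has the least certain course of the 3.

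Marker genes of other cell types moved along with the family in part, and their calls stand against the 29.0 to 31.9% of all tested genes called in each direction against the control, and the 6.17% called higher between the mutants. All 6 genes of the rare cells in ESC cultures that resemble the 2-cell embryo (Zscan4c, Zscan4d, Zscan4f, Usp17lc, Tcstv3 and Zfp352) were higher in both mutants, with summed levels of 842 to 871 normalized counts in the control, 2132 to 2191 in Ins/Ins and 3051 to 3220 in Ins/Del, and 4 of the 6 were higher in Ins/Del than in Ins/Ins. Germ cell markers summed to 3917 to 4019, 4986 to 5095 and 5013 to 5276, with 5 of 8 higher and 2 lower in each mutant. Lymphoid markers were low, at 56.3 to 72.3, 95.9 to 119 and 90.2 to 129, with 2 of 5 tested and 1 higher in each mutant. Fibroblast markers summed to 577 to 678 in the control, 255 to 282 in Ins/Ins and 342 to 363 in Ins/Del, with 1 of 4 tested genes higher and 3 lower in each. The mutant sums were mostly Thy1, the gene that rose, with means of 45.7, 246 and 312 in control, Ins/Ins and Ins/Del. The 3 lower genes were collagens, of which Col1a1 fell from 287 to 17.0 and 24.4 and Col1a2 from 250 to 6.43 and 9.28. Primitive endoderm markers summed to 345 to 379, 192 to 252 and 272 to 305, with 1 of 5 tested higher and 2 lower in Ins/Ins and 3 higher and 2 lower in Ins/Del. No marker list had a gene at 0 in all libraries of a line, and the part of these cells in the levels of the Xlr genes was not tested.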

How the data were processed

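The authors made libraries from mRNA (Kapa mRNA HyperPrep), read both ends for 50 bp on an Illumina NovaSeq, aligned to mm10 with STAR 2.7.3 and counted by HTSeq. The HTSeq version, its strand setting and the annotation are not given in the sources used here. The deposited values are counts per gene symbol as whole numbers that had not been normalized.

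Genes were filtered with filterByExpr and counts fitted with edgeR 4.0.16 in R 4.3.3 (TMM factors, quasi-likelihood test) over all 9 libraries as 3 groups without covariates. P-values were adjusted by Benjamini-Hochberg over the 14125 tested genes with a limit of 0.01. Subfamily sums replaced their members in a second table of 14119 tested rows. Standard errors are the log2 fold change divided by the root of the F statistic. Shares were compared by two-sided exact permutation tests (scipy 1.17.1). Positions, transcripts and windows came from GENCODE M21 and promoters from RefSeq, both on GRCm38, and identities were aligned with Biopython 1.88.

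Members and gene lists were chosen with earlier results of these data known. Named are the members, their sums, the listed SYCP3-like genes, genes within the repeats, neighbours and X-linked germ cell genes past 2-fold in both mutants, the 3 genes most like each sum, and Rbbp4. Samples were grouped by genotype label. Alternatives were DESeq2 1.42.0 and its size factors, total counts, every gene with a read, only the groups compared, a replicate block, each library left out and an adjusted p limit of 0.05. The fit was also run on simulated data with 200 changed genes, and the outcome is not reported here. Exact intervals and floors cover counting error only.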

Additional observations from a re-analysis of the deposited data

Results flagged for a closer look

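The mutants differed from each other in their effect on the family, by edgeR's test of the difference itself, so these differences are listed for a closer look. On the log2 scale the effect in Ins/Del minus that in Ins/Ins was 1.37 for the Xlr3 sum, 1.80 for the Xlr4 sum and 1.47 for the Xlr5 sum. By gene it was 1.24 for Xlr3a, 1.63 for Xlr3b, 1.81 for Xlr3c, 2.04 for Xlr4a, 1.58 for Xlr4b, 1.55 for Xlr4c, 1.70 for Xlr5a and 1.33 for Xlr5b. Both effects are set against the same control libraries, which cancel in the difference. Xlr4a and Xlr4c passed the filter only through Ins/Del, where they are high. All Ins/Del libraries were above all Ins/Ins libraries for each gene listed here. The nearby genes Pnma5, Dusp9, Slc6a8 and Bcap31 had the same order, and its share over all genes was not determined. Rbbp4 RNA was lower in Ins/Ins, at 5604 ± 153 normalized counts (SD, n = 3), than in Ins/Del, at 10359 ± 238. With 1 clone per genotype, a difference between the genotypes and one between the clones cannot be told apart.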

How the results depend on the processing

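Between the mutants, the Xlr3, Xlr4 and Xlr5 sums kept their direction and call under all 15 alternatives each, with log2 differences of 1.33 to 1.43, 1.73 to 1.86 and 1.32 to 1.58. Of the 9 members, 8 were called there, 5 by DESeq2 (which gave an adjusted p to only 5 of them) and 7 to 8 with each library left out. In Ins/Ins against the control 9 were called, 5 with only the 2 groups compared (only 5 then passed the filter) and 8 to 9 with each library left out. In Ins/Del against the control 9 were called throughout. The genes were chosen on both contrasts against the control, so these counts are a description. With each control or mutant library left out, log2 fold changes against the control ranged from 3.96 to 4.51 (Xlr4 sum, Ins/Ins), 5.60 to 8.86 (Xlr5 sum, Ins/Ins), 5.76 to 6.31 (Xlr4 sum, Ins/Del) and 7.07 to 10.33 (Xlr5 sum, Ins/Del). Xlr4c lost its call between the mutants in 6 of 14 alternatives, among them total counts (adjusted p = 0.0101 by edgeR). Of 397 alternatives for single members, 376 gave the same result, 6 were weaker, 15 moved beyond the spread of the libraries and 0 reversed direction. They include the contrasts against the control, where a reversal could hardly occur because the genes were chosen on them. Deviations of libraries with the same replicate number correlated little across lines (over genes, -0.028 to 0.056). Libraries with different numbers were not compared, so whether the numbers pair libraries is not settled. With the replicate number as a block 7 members were called between the mutants, Xlr4c being lost (log2 1.55, adjusted p = 0.011 by edgeR), and the Xlr3 sum differed by 1.37. With near-zero control counts, depth limits every fold against the control.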
